A study of Mus musculus with 12 samples.

Results

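The neuromuscular junction is the synapse at which a motor nerve ending releases acetylcholine onto a skeletal muscle fibre, and 10 of its genes were followed here in tumour-bearing mice. The genes were 5 subunits of the muscle acetylcholine receptor (Chrna1, Chrnb1, Chrnd, Chrne and Chrng), 3 proteins that gather the receptor under the nerve ending (Musk, Dok7 and Rapsn), and the histone deacetylases Hdac4 and Hdac9. They were taken by gene symbol as a named list and are 10 of 19381 named genes tested. Each was represented by 1 row of the array, so all 10 were measured and no filter on low values removed any.

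The mice either bore a tumour grown under the skin from C26 cells, a colon carcinoma line that wastes its host and serves as a cachexia model, or had received 100 μl of culture medium and no tumour (NTB). The 4 groups were C26 gastrocnemius, NTB gastrocnemius, C26 heart and NTB heart, with 3 arrays each, described in the design text as biological replicates. All mice were Balb/c-DBAj hybrids aged 10 to 11 weeks and untreated otherwise, as far as the labels say, and whole muscles were used. Gastrocnemius, a limb muscle, and heart came from separate cohorts, so muscle and cohort cannot be told apart. The tumour-bearing time and the degree of wasting are not given in the labels used here.

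The adult muscle receptor is a pentamer of subunits alpha 1 (Chrna1), beta 1 (Chrnb1), delta (Chrnd) and epsilon (Chrne), whereas the gamma subunit (Chrng) takes the place of epsilon in fetal and in denervated muscle. Nuclei under the nerve ending transcribe these genes, and electrical activity of the fibre keeps most of them low elsewhere. Nerve-derived agrin binds Lrp4, which activates the kinase Musk, Dok7 sustains that activity, and rapsyn (Rapsn) tethers the receptors in clusters. Loss of the nerve, in mouse muscle, is known to raise Chrna1, Chrng, Musk and the myogenic factor Myog along the fibre. Hdac4 and Hdac9 are class IIa deacetylases that bind MEF2 factors and take part in the coupling of nerve activity to these genes.

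The tissues carried the markers of their labels. Over 8 skeletal muscle genes, including the creatine kinase Ckm and the fast myosin Myh4, the mean log2 level was 12.99 to 13.22 on C26 gastrocnemius arrays and 13.29 to 13.37 on NTB gastrocnemius arrays, against 7.32 to 7.47 in C26 hearts and 7.40 to 7.70 in NTB hearts. Over 8 heart genes the mean was 11.95 to 12.19 in C26 hearts and 12.18 to 12.49 in NTB hearts, against 6.38 to 6.73 in C26 gastrocnemius and 6.96 to 7.12 in NTB gastrocnemius. Array medians lay between 5.93 and 6.09. C26 gastrocnemius array 3 stood apart: its interquartile range was 2.48, against 2.66 to 2.92 on the other 11 arrays, and its correlation over genes with the mean of its group's other arrays was 0.974, against 0.986 to 0.996 for the others. It gave the lowest value of its group for 9 of the 10 genes, the exception being Chrng, and results that rest on it are given with and without it. How often it was the lowest over all genes is not given here.

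In C26 gastrocnemius, 2 of the 10 genes fell and 0 rose. Chrne, the adult receptor subunit, was 2.36-fold lower and Hdac9 1.76-fold lower than in NTB gastrocnemius. Throughout, a gene is said to have risen or fallen where the adjusted p from limma (Benjamini-Hochberg over all 19381 genes, two-sided) was under 0.05. By that criterion 5.47% of all genes were lower and 6.48% were higher in C26 gastrocnemius, the background against which 2 and 0 of 10 are to be read. The median difference over the 10 genes was -0.05, against -0.0031 over all genes. In C26 heart, 1 of the 10 fell (Hdac9) and 0 rose, where 1.09% of all genes were lower and 2.14% higher. At an unadjusted p under 0.05 in limma, 3 of the 10 were lower and 0 higher in C26 gastrocnemius, and 2 were lower and 0 higher in C26 heart. The share of all genes at an unadjusted p is not given here. Unadjusted counts, here and below, are therefore not to be set against the adjusted shares above. These arrays measure whole muscle, in which fewer cells or nuclei of a type and less RNA per cell or nucleus cannot be told apart.

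**Figure D1:**
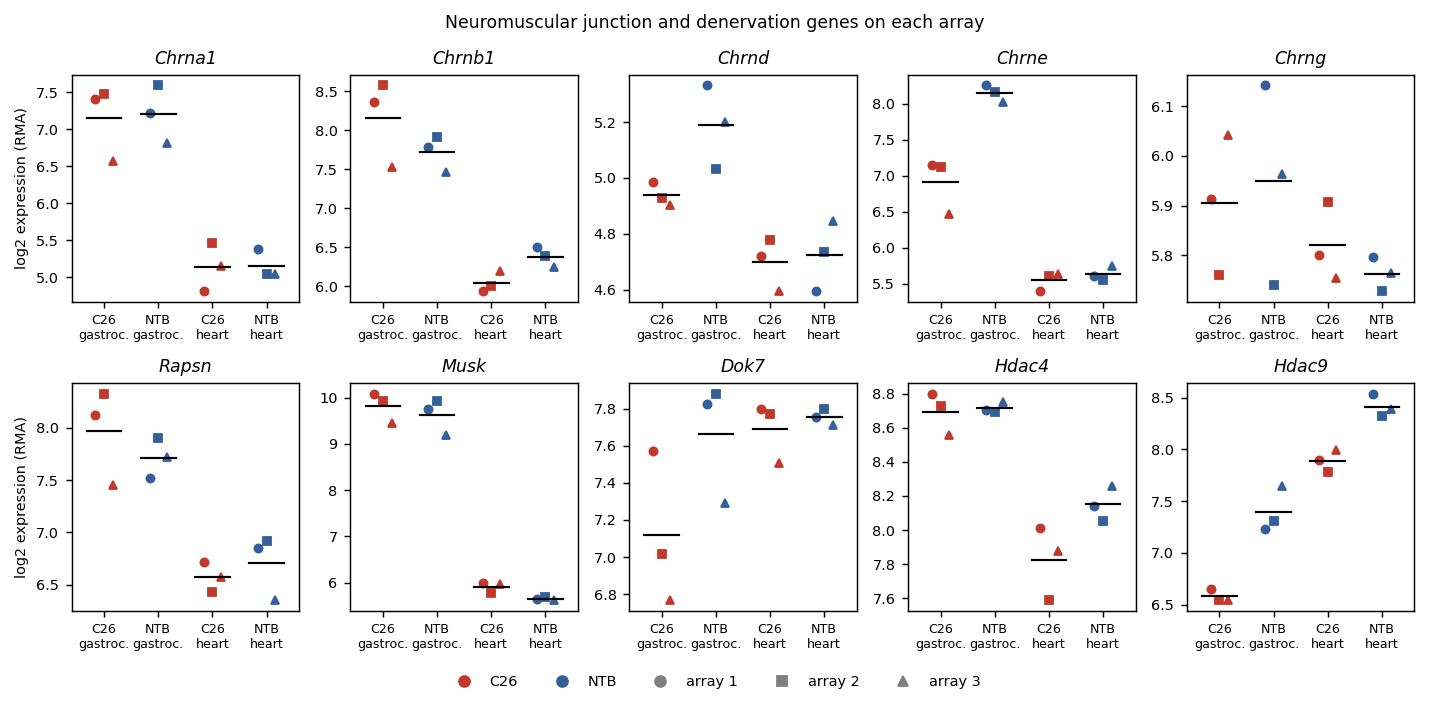
Log2 expression (RMA, vertical axis) of each of the 10 genes on each array, by group; red marks C26, blue NTB, marker shapes give the array number within a group and black bars the mean of 3 arrays. Chrne and Hdac9 in C26 gastrocnemius lie below all NTB gastrocnemius arrays, and the vertical scale differs between panels.

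Chrne had log2 levels of 7.14, 7.12 and 6.47 on C26 gastrocnemius arrays 1 to 3, against 8.26, 8.16 and 8.02 on NTB gastrocnemius arrays 1 to 3. Every C26 array was below every NTB array, the highest C26 value being 7.14 and the lowest NTB value 8.02. The difference was -1.24 ± 0.16 (SE; 95% interval -1.59 to -0.89, n = 3 arrays per group, limma adjusted p = 1.33e-04). Between arrays of the same number it was -1.12, -1.04 and -1.55. In heart the levels were 5.39, 5.61 and 5.64 in C26 and 5.61, 5.55 and 5.75 in NTB, with overlapping groups and a difference of -0.09 ± 0.16 (95% interval -0.44 to 0.26, limma adjusted p = 0.936). The tumour effect on Chrne differed between the muscles by -1.15 ± 0.23 (gastrocnemius minus heart, limma adjusted p = 0.0108). This was the only member of the 10 whose effect differed between muscles by that test, which called 4.01% of all genes.

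The other 4 receptor subunits did not pass the test in C26 gastrocnemius. Chrng, the fetal subunit, read 5.91, 5.76 and 6.04 in C26 gastrocnemius and 6.14, 5.74 and 5.96 in NTB gastrocnemius. The groups overlapped, and the difference of -0.04 ± 0.13 had a 95% interval of -0.31 to 0.23. Chrna1, which binds the transmitter, read 7.41, 7.48 and 6.57 in C26 gastrocnemius and 7.21, 7.60 and 6.82 in NTB gastrocnemius. Its groups overlapped too, with a difference of -0.06 ± 0.24 and an interval of -0.58 to 0.46, and array 3 was the lowest of both groups.

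Chrnd, which forms a transmitter site together with alpha, read 4.99, 4.93 and 4.90 in C26 gastrocnemius, against 5.33, 5.03 and 5.20 in NTB gastrocnemius. All C26 arrays were lower, yet the difference of -0.25 ± 0.12 did not pass (limma adjusted p = 0.243). Such separation, with every C26 array below every NTB array, was met by 3 of the 10 genes (Chrnd, Chrne and Hdac9) and by 9.45% of all genes, and the opposite separation by 0 of the 10 and 10.0% of all genes. Chrnb1, whose product contacts rapsyn, read 8.36, 8.58 and 7.53 in C26 gastrocnemius and 7.78, 7.92 and 7.46 in NTB gastrocnemius. The first 2 C26 arrays were above all NTB arrays and array 3 was not. The difference was 0.44 ± 0.21 (limma adjusted p = 0.255), and without C26 gastrocnemius array 3 it was 0.75 with a limma adjusted p of 0.00197, so whether Chrnb1 passes rests on that array.

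Because array 3 was low for most of these genes in C26 gastrocnemius, Chrne was also read against the other subunits within each array, a step chosen after the values were seen. Log2 Chrne minus log2 Chrnb1 was -1.21, -1.46 and -1.07 in C26 gastrocnemius, against 0.48, 0.24 and 0.56 in NTB gastrocnemius. The shift between groups was -1.68. Relative to Chrna1 the shift in Chrne was -1.18, relative to Chrnd -0.99 and relative to Chrng -1.19. The groups did not overlap in any of these 4 comparisons in gastrocnemius, but all 4 share the Chrne values, which were already apart by group. The exact two-sided permutation test gave p = 0.1 in each, the smallest p that 3 arrays against 3 allow, and 0.167 after Benjamini-Hochberg adjustment over the 10 within-array comparisons computed. In heart the same 4 shifts were -0.15 to 0.25 with exact permutation p from 0.3 to 0.8. In C26 gastrocnemius Chrng read highest on array 3 and Chrnd varied little, so subtracting them did not remove the low Chrne reading of that array. Log2 Chrne minus log2 Chrng was 1.23, 1.36 and 0.42 on C26 gastrocnemius arrays 1 to 3. The within-array differences describe unequal change between rows of the array, not the ratio of the subunits' RNA.

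**Figure D2:**
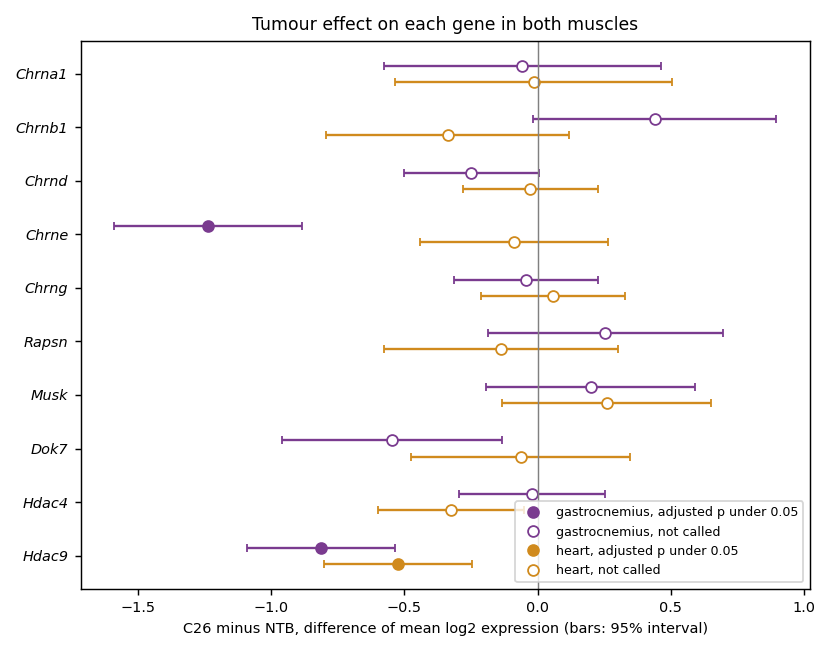
Difference in mean log2 expression, C26 minus NTB (horizontal axis), for each gene in gastrocnemius (purple) and heart (orange), with 95% intervals from the limma fit; filled points have an adjusted p under 0.05. Chrne in gastrocnemius (-1.24) and Hdac9 in gastrocnemius (-0.81) and heart (-0.52) are filled.

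The RefSeq promoter windows of receptor subunit genes (assembly GRCm38.p6) are shown for Chrne, the subunit that fell, and for Chrna1, Chrnb1 and Chrng, which did not pass the test. Each line is the 250 bases before the annotated start, 5′ to 3′ on the gene's strand. Capitals mark the E-box CANNTG, the kind of site that myogenic factors bind, and the N-box CCGGAA, the kind of site through which ETS factors are known to direct Chrne transcription to synaptic nuclei. Both strands were searched, and no E-box overlaps an N-box in these windows.
Chrne, chr11:70619195-70619444, minus strand: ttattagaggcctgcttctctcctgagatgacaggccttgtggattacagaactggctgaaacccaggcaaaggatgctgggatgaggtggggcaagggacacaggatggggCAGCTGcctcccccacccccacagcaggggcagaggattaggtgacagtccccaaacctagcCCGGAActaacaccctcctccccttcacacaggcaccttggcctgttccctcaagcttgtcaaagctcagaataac
Chrna1, chr2:73580339-73580588, minus strand: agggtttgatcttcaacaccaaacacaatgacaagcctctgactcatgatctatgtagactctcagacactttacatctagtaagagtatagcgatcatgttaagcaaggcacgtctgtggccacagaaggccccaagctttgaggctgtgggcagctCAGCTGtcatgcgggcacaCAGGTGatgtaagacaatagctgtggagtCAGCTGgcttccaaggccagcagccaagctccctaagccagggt
Chrnb1, chr11:69795938-69796187, minus strand: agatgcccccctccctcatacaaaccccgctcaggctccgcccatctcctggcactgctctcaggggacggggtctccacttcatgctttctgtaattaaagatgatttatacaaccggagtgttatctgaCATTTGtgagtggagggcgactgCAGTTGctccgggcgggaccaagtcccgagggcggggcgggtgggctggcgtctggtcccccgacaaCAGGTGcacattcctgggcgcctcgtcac
Chrng, chr1:87205561-87205810, plus strand: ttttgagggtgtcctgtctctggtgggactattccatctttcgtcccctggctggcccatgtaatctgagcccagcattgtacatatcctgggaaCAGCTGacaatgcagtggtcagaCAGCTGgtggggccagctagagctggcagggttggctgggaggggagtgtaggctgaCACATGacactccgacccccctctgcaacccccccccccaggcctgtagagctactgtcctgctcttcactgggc

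The Chrne window held 1 E-box, CAGCTG at 138 to 133 bases before the start, and 1 N-box at 76 to 71 bases before it. The windows of Chrna1, Chrnb1 and Chrng each held 3 E-boxes and 0 N-boxes, and that of Musk likewise held 3 and 0. Of the 10 genes, 8 matched the promoter table, with 10 windows in all. Chrnd and Rapsn had no window there, so their promoters were not searched. The Chrne window was the only one of these 10 with an N-box. Over all 32851 windows of the table, 66.22% held at least 1 E-box and 12.03% at least 1 N-box. A count of 1 N-box window in 10 is near that share, so it does not set these genes apart. A match is a run of letters and was not tested as a binding site.

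Among the proteins that gather the receptor, no gene passed the test in gastrocnemius in the fit of group means. Dok7, the adaptor that activates Musk from inside the fibre, read 7.57, 7.02 and 6.77 in C26 gastrocnemius, against 7.82, 7.88 and 7.29 in NTB gastrocnemius. The C26 value of array 1 lay above the NTB value of array 3, so the groups overlapped, but within each same-numbered pair the C26 array was the lower, by -0.25, -0.86 and -0.53. The difference was -0.55 ± 0.19 (1.46-fold lower, limma adjusted p = 0.0873). With the replicate number as a block, Dok7 passed the test (limma adjusted p = 0.0268), in a fit that called 5.92% of all genes lower. Pairing by replicate number is not stated in the labels. It was inferred, for gastrocnemius only, from deviations of same-numbered arrays in these same data, so this pass rests on that inference. Dok7 also passed without C26 gastrocnemius array 1 (-0.77, limma adjusted p = 0.00642) and without NTB gastrocnemius array 3 (-0.73, limma adjusted p = 0.0266). Over all single arrays left out, its adjusted p ran up to 0.279.

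Musk, the receptor kinase, had the levels 10.09, 9.93 and 9.46 in C26 gastrocnemius and 9.75, 9.93 and 9.20 in NTB gastrocnemius. The groups overlapped, array 3 was the lowest in both, and the difference was 0.20 ± 0.18 (limma adjusted p = 0.658). Read within arrays, log2 Dok7 minus log2 Musk was -2.51, -2.91 and -2.69 in C26 gastrocnemius, against -1.93, -2.04 and -1.91 in NTB gastrocnemius. These values did not overlap, with a shift of -0.74 and an exact permutation p of 0.1 (0.167 adjusted). The pair of Dok7 and Musk was also chosen after the values were seen. In heart log2 Dok7 minus log2 Musk was 1.80, 2.00 and 1.53 in C26, against 2.10, 2.11 and 2.09 in NTB. Those values did not overlap either (shift -0.32, exact permutation p = 0.1, 0.167 adjusted). Rapsn, the receptor's anchor, read 8.12, 8.33 and 7.45 in C26 gastrocnemius and 7.52, 7.90 and 7.72 in NTB gastrocnemius. C26 arrays 1 and 2 were above and C26 array 3 was below all NTB arrays, and the difference was 0.25 ± 0.21 (limma adjusted p = 0.589). Without C26 gastrocnemius array 3 it was 0.51 with a limma adjusted p of 0.0461, so for Rapsn too the outcome rests on that array. With that array left out, 4 of the 10 genes were called in gastrocnemius, Chrne and Hdac9 lower and Chrnb1 and Rapsn higher. The share of all genes called in that fit is not given here, so this count has no background beside it.

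**Figure D3:**
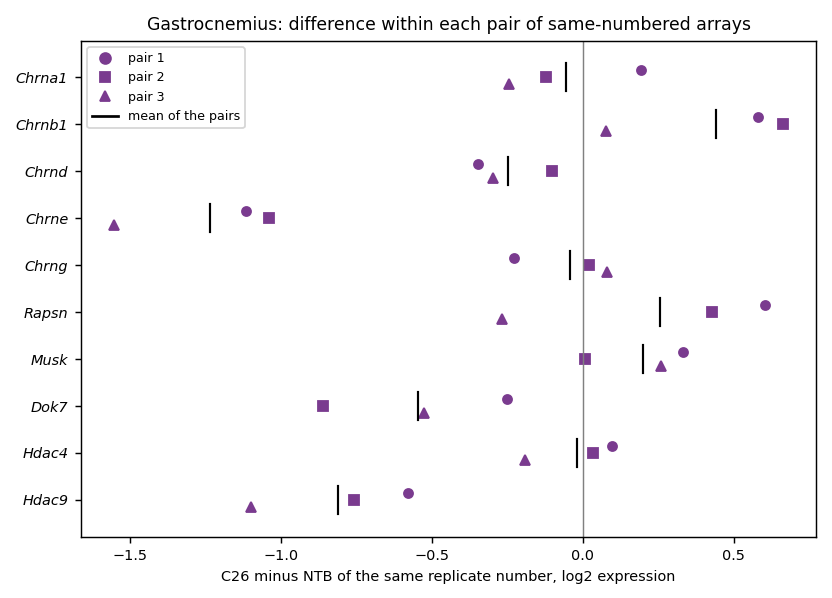
Difference in log2 expression between C26 and NTB gastrocnemius arrays of the same replicate number (horizontal axis), with 1 marker per pair and a black bar at the mean of the 3 pairs. All 3 pairs are below 0 for Chrne, Hdac9, Dok7 and Chrnd and above 0 for Chrnb1 and Musk, while those of the other genes lie on both sides.

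Hdac9 fell in both muscles. In gastrocnemius it read 6.65, 6.55 and 6.54 in C26, against 7.23, 7.31 and 7.64 in NTB. The C26 arrays lay close together and below all NTB arrays, and the difference was -0.81 ± 0.13 (95% interval -1.09 to -0.54, limma adjusted p = 6.28e-04). In heart it read 7.89, 7.78 and 7.997 in C26, against 8.54, 8.32 and 8.39 in NTB. These groups were apart as well, with a difference of -0.52 ± 0.13 (1.44-fold lower, limma adjusted p = 0.0384). The heart call was lost when any single heart array was left out (limma adjusted p up to 0.185), although the difference then still ran from -0.58 to -0.46. The effects in the 2 muscles differed by -0.29 ± 0.18 (gastrocnemius minus heart, limma adjusted p = 0.544, 95% interval -0.68 to 0.10).

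Hdac4 read 8.80, 8.73 and 8.56 in C26 gastrocnemius and 8.70, 8.69 and 8.75 in NTB gastrocnemius. The groups overlapped, and the difference of -0.02 ± 0.13 had a 95% interval of -0.29 to 0.25. In heart Hdac4 read 8.01, 7.59 and 7.87 in C26, against 8.14, 8.05 and 8.26 in NTB. All C26 hearts were lower, but the difference of -0.32 ± 0.13 did not pass (limma adjusted p = 0.273). Of 9 other histone deacetylases measured, 0 passed limma's test in gastrocnemius (1 was lower at an unadjusted p under 0.05), with Hdac5, another class IIa enzyme, at 0.16 (limma adjusted p = 0.632). In heart 1 of the 9 fell, Hdac11 by -0.71 ± 0.12 (limma adjusted p = 0.00276).

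The remaining 9 genes, Chrne and Hdac4 among them, did not pass in heart. Musk read 6.0002, 5.77 and 5.97 in C26 hearts, against 5.65, 5.69 and 5.62 in NTB hearts. All C26 hearts were higher, with a difference of 0.26 ± 0.18 (limma adjusted p = 0.698). Chrnb1 read 5.93, 5.997 and 6.19 in C26 hearts, against 6.50, 6.39 and 6.24 in NTB hearts. All C26 hearts were lower, with a difference of -0.34 ± 0.21 (limma adjusted p = 0.632). In heart the groups were apart for 3 of the 10 genes in the lower direction (Chrnb1, Hdac4 and Hdac9) and for 1 in the higher (Musk), against 13.4% and 14.2% of all genes. The other differences in heart lay between -0.14 for Rapsn and 0.06 for Chrng. The tumour effect on Chrnb1 was 0.78 ± 0.30 higher in gastrocnemius than in heart (limma adjusted p = 0.216), and without C26 gastrocnemius array 3 it was 1.09 higher with a limma adjusted p of 0.00268. The median of the 10 genes in heart was -0.08, against 0.0084 over all genes.

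Without a tumour, 7 of the 10 genes were lower in NTB heart, which has no neuromuscular junction, than in NTB gastrocnemius, and 1 was higher. Over all genes 15.8% were lower and 24.8% higher in NTB heart. Musk was 15.7-fold lower in NTB heart, where its 3 arrays read 5.65, 5.69 and 5.62, against 9.75, 9.93 and 9.20 in NTB gastrocnemius (-3.97 ± 0.18, limma adjusted p = 2.29e-10). Chrne was 5.70-fold lower (-2.51 ± 0.16) and Chrna1 4.14-fold lower (-2.05 ± 0.24), while Chrnb1 was 2.53-fold and Rapsn 2.01-fold lower. Chrnd was lower by a difference of -0.46 ± 0.12 and Hdac4 by -0.57 ± 0.13. Hdac9 ran the other way and was 2.03-fold higher in NTB heart (1.02 ± 0.13, limma adjusted p = 1.18e-05). Chrng (-0.19 ± 0.13) and Dok7 (0.09 ± 0.19) did not pass, and Dok7 read 7.76, 7.80 and 7.71 in NTB hearts, against 7.82, 7.88 and 7.29 in NTB gastrocnemius. No detection call was used, so whether rows that read near or under 6 were above background was not tested. This holds for the dim rows in heart and, in gastrocnemius, for Chrnd and Chrng and for the shifts of Chrne read against them.

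The 3 genes whose levels followed Chrne most closely over the 12 arrays were Slc8a3, a sodium and calcium exchanger (Pearson r = 0.994), Kif3c, a kinesin (0.992), and Itm2a, a membrane protein (0.991). They fell in C26 gastrocnemius by -1.21, -0.80 and -2.20, and their differences in heart were -0.14, -0.22 and -0.07. Closest to Hdac9 were Grb14, an adaptor of the insulin receptor (r = 0.987), the kinase Wnk1 (0.984) and Nav2 (0.978). They fell in C26 gastrocnemius by -1.47, -0.51 and -0.84. The points of these correlations are 12 arrays in 4 groups, and the differences between muscles and between C26 and NTB are part of each r. These genes were picked by r on the same arrays. Their falls therefore follow in part from the choice and are not separate support for those of Chrne and Hdac9.

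Genes around the 10, not all of them genes of the synapse, were examined in 8 lists holding 94 measured genes of 96 named. The lists were chosen with earlier results of these data known, so their shares beside those of all genes are only a description. In C26 gastrocnemius 16 of the 94 fell (17.0%) and 5 rose (5.32%), beside the 5.47% and 6.48% of all genes, with a median of -0.05. The fall counts were 10 to 16 when single arrays were left out, the lowest without NTB gastrocnemius array 2, and 14 with the replicate block. In C26 heart 5 of the 94 fell and 4 rose, and the falls numbered 1 without C26 heart array 2 or 3, 2 without NTB heart array 1 or 3, 3 without C26 heart array 1 or NTB heart array 2, and 8 without C26 gastrocnemius array 3. The list medians in gastrocnemius ran from -0.41 for the channels to 0.01 for the other deacetylases.

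Of 14 genes of agrin signalling and its scaffold, 2 fell in C26 gastrocnemius and 0 rose. Lrp4, the agrin receptor that activates Musk, read 6.76, 6.78 and 6.74 in C26 gastrocnemius, against 7.14, 7.37 and 7.32 in NTB gastrocnemius (-0.52 ± 0.11, limma adjusted p = 0.00514). In heart it was higher in C26, at 7.45, 7.47 and 7.58, against 6.92, 6.87 and 6.88 in NTB (0.61 ± 0.11, limma adjusted p = 0.00459). The groups were apart in both muscles, in opposite directions, and the difference of the effects was -1.13 (limma adjusted p = 5.73e-04). Abl2, a kinase downstream of Musk, fell by -0.37 ± 0.11 (limma adjusted p = 0.0462), a call lost without 11 of the 12 arrays in turn and with the replicate block (0.0542). Agrn itself differed by -0.16 (limma adjusted p = 0.565).

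Of 15 genes of the synaptic matrix, 4 fell in C26 gastrocnemius and 0 rose. In heart 0 passed limma's test, and 2 were higher and 1 lower at an unadjusted p under 0.05. Ache, the esterase that ends transmission by splitting acetylcholine, read 6.46, 6.71 and 5.59 in C26 gastrocnemius, against 7.68, 8.34 and 7.41 in NTB gastrocnemius. All C26 arrays were lower, and Ache was 2.94-fold lower (-1.56 ± 0.25, limma adjusted p = 6.99e-04), while Colq, the collagen that anchors it, differed by -0.19 ± 0.13 (limma adjusted p = 0.518). The SE of Ache rests on 1 spread shared by both muscles. The SD of Ache was 0.59 in C26 and 0.48 in NTB gastrocnemius, against 0.10 in each heart group. The nidogens Nid2 (-0.69 ± 0.13) and Nid1 (-0.57 ± 0.16) and perlecan, Hspg2 (-0.64 ± 0.18), are basement membrane proteins of the whole fibre as well. The calls for Nid1 and Hspg2 were lost without NTB gastrocnemius array 2. Leaving out C26 gastrocnemius array 1 ended the call for Nid1, and leaving out array 3 that for Hspg2.

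Of 12 genes of the dystrophin complex, which links the fibre's cytoskeleton to that matrix, 3 fell and 0 rose in C26 gastrocnemius. They were the syntrophin Sntb1 (-0.91 ± 0.13, limma adjusted p = 3.17e-04), sarcospan, Sspn (-1.03 ± 0.29, limma adjusted p = 0.0282), and delta-sarcoglycan, Sgcd (-0.71 ± 0.21, limma adjusted p = 0.0419). The call for Sspn was lost without NTB gastrocnemius array 1 or 2, and that for Sgcd without 11 of the 12 arrays in turn. Utrophin, Utrn, the synaptic relative of dystrophin, differed by -0.02 ± 0.11 (limma adjusted p = 0.963). In heart Sntb1 fell by -0.53 ± 0.13 (limma adjusted p = 0.0420), a call lost without 8 of the 12 arrays in turn. Of 8 genes of neuregulin signalling and ETS factors, 0 passed limma's test in either muscle, and at an unadjusted p under 0.05 there were 0 in gastrocnemius and 1, lower, in heart.

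Of 8 ion channel genes of the fibre, 4 fell in C26 gastrocnemius and 0 rose. The chloride channel Clcn1, which sets the resting conductance of the fibre, read 8.65, 8.70 and 7.93 in C26 gastrocnemius, against 9.70, 10.02 and 10.01 in NTB gastrocnemius (2.80-fold lower, -1.49 ± 0.18, limma adjusted p = 6.12e-05). Every C26 array was below every NTB array. Kcnn2, a calcium-activated potassium channel, fell by -0.89 ± 0.14, and Scn4a, the adult muscle sodium channel that lies in the folds of the junction, by -0.52 ± 0.16 (limma adjusted p = 0.0481, 0.0534 with the replicate block, lost without 8 of the 12 arrays in turn). In heart Kcnn3 rose by 0.68 ± 0.12, and Scn4a (-0.74 ± 0.16) and Kcnn2 (-0.68 ± 0.14) fell. The heart calls for Scn4a and Kcnn2 were lost without 4 and 3 of the arrays in turn.

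Of 17 measured genes known from denervated muscle, 4 rose and 3 fell in C26 gastrocnemius. The list sets no direction for each gene, so its rises and falls are not to be read against each other. The growth arrest genes Cdkn1a (p21) and Gadd45a rose by 2.17 ± 0.19 and 1.58 ± 0.13, the AMP deaminase Ampd3 by 1.58 ± 0.13 and the transcription factor Runx1 by 0.59 ± 0.14 (limma adjusted p = 0.0109, and 0.0561 without NTB gastrocnemius array 3). Igfbp5, an IGF-binding protein, read 8.37, 7.91 and 7.42 in C26 gastrocnemius, against 10.46, 10.78 and 10.69 in NTB gastrocnemius, and was 6.70-fold lower. The filament gene Nes (-1.20 ± 0.22), whose protein is found under the nerve ending, and the calcium buffer Pvalb (-0.97 ± 0.21) fell too. Myog (0.34 ± 0.19, limma adjusted p = 0.357), the adhesion molecule Ncam1 (0.13 ± 0.20, 0.825), the repressor Dach2 (-0.09 ± 0.11, 0.790), embryonic myosin Myh3 (-0.04 ± 0.14, 0.941) and perinatal myosin Myh8 (-0.38 ± 0.18, 0.260) did not pass. In heart Cdkn1a rose by 2.90 ± 0.19 and Ampd3 by 0.55 ± 0.13, and Dach1 fell by -0.48 ± 0.12. The heart calls for Ampd3 and Dach1 were lost without 6 and 5 of the arrays in turn. Of 11 acetylcholine receptor subunits of the neuronal type, Chrna9 rose in C26 gastrocnemius (0.81 ± 0.15, limma adjusted p = 0.00161), and in heart 0 passed limma's test (1 was lower at an unadjusted p under 0.05).

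**Figure D4:**
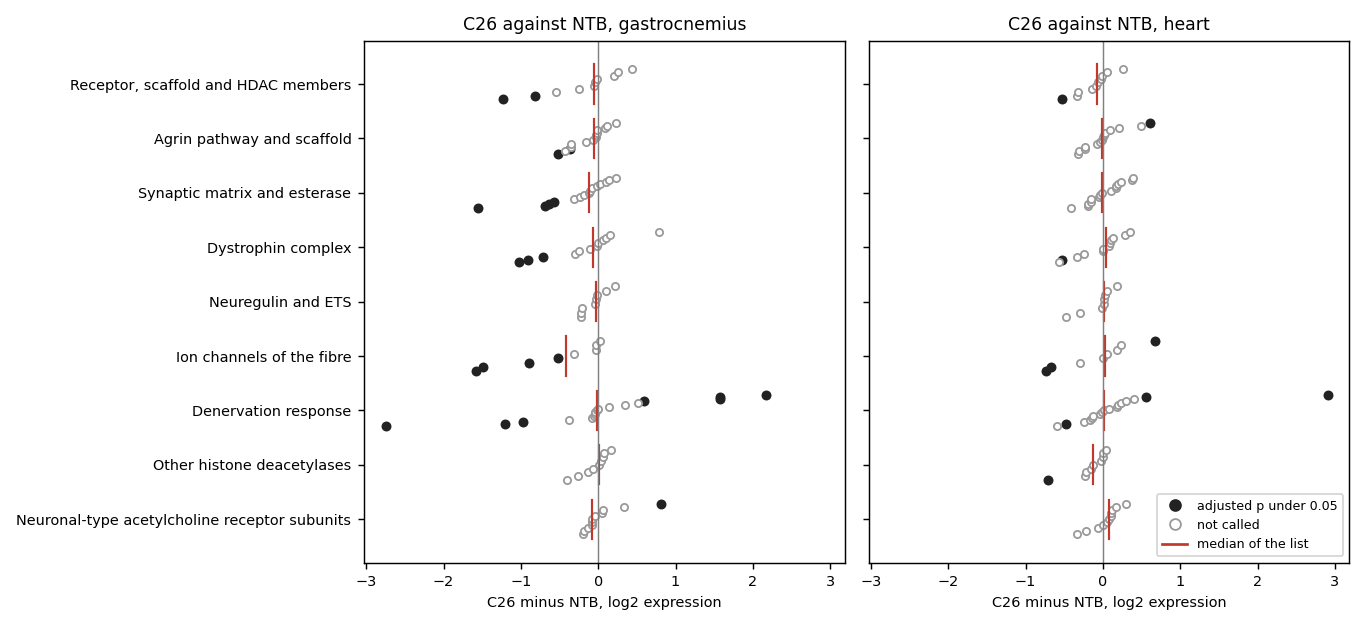
Difference in log2 expression, C26 minus NTB (horizontal axis), in gastrocnemius (left) and heart (right) for the 10 genes and for the genes of 8 lists around them; each point is a gene, filled where the adjusted p is under 0.05, and red bars are list medians. In gastrocnemius the filled points of the matrix, dystrophin and channel lists lie below 0, and those of the denervation list lie on both sides.

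Markers of other cell types were read beside these genes. Of 13 Schwann cell and nerve markers, 0 passed limma's test in either muscle, also at an unadjusted p under 0.05, and their mean level was 6.14 to 6.87 on C26 gastrocnemius arrays and 6.28 to 6.70 on NTB gastrocnemius arrays. Of 7 satellite cell markers, 0 passed in either muscle, and 1 was higher in C26 gastrocnemius at an unadjusted p under 0.05. Of 6 fibroblast markers, 3 fell in C26 gastrocnemius, with summed log2 levels of 48.1 to 50.2 in C26 and 53.2 to 57.1 in NTB, and of 4 red cell markers 3 rose, with sums of 36.01 to 36.53 in C26 and 32.02 to 32.88 in NTB. Of 8 macrophage markers 1 rose in C26 gastrocnemius, and of 4 endothelial markers 2 rose there. Leaving out array 1 of either gastrocnemius group, or array 3 of the NTB group, reduced the endothelial count to 1. In C26 heart 5 of the 8 macrophage markers rose, with summed log2 levels of 62.8 to 63.2 in C26 and 56.8 to 58.0 in NTB. That count was 2 when any single one of C26 heart arrays 1 to 3 or NTB heart arrays 2 and 3 was left out. Of the 6 fibroblast markers 0 passed limma's test in heart, but 5 were higher in C26 heart at an unadjusted p under 0.05, with sums of 53.03 to 54.7 in C26 and 51.02 to 51.3 in NTB. The part of these cell types in the falls of Chrne, Hdac9 and Ache was not tested.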

How the data were processed

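Total RNA of 12 whole muscles (250 ng each) was hybridised to 12 Affymetrix MoGene 1.0 ST arrays. The deposited values used are log2 expression values made by the authors; RMA, GCOS, Partek and the build mm8 are named, without roles, per the submitters' processing notes. Joint normalization of the 12 arrays is not stated in the sources used here. In a second deposited table, used for gene symbols, 12 value columns were not used because their names are not those of the samples. Its symbols stop after 7 characters and were completed through the RefSeq gene table (GRCm38.p6), which named 21771 of 35556 rows. The row with the highest mean was kept per gene.

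One limma model (R 4.3.3, limma 3.58.1) of 4 group means, with variances moderated along the expression trend (8 residual, 6.85 prior degrees of freedom), was fitted to 19381 genes and was tested on simulated data. Contrasts were C26 minus NTB in each muscle, their difference, and NTB heart minus NTB gastrocnemius. The SD of 3 arrays limits the precision. Deviations of same-numbered arrays correlated at 0.31, 0.33 and 0.50 in gastrocnemius, which was taken as pairing, and at 0.09, -0.04 and 0.01 in heart, which was not. No pairing is stated in the labels used here. The replicate block was still fitted over both muscles, except where each muscle was fitted alone.

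The members and lists were chosen with earlier results of these data known. All 10 members are named, up to 4 called genes per list and direction, defining genes of the lists, and the 3 genes most correlated with each member called in gastrocnemius. Some genes of the lists are counted in them but not reported here by name. Protein sequences were not used here.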

Additional observations from a re-analysis of the deposited data

Results flagged for a closer look

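The tumour effect on Chrne differed between the muscles, by -1.15 on the log2 scale (gastrocnemius minus heart, limma adjusted p = 0.0108). Its difference in C26 gastrocnemius was -1.24 and in C26 heart -0.09, and the difference between muscles stayed called under each of the 18 alternatives run (-1.27 to -0.93, limma adjusted p up to 0.0387).

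The effect also differed between the muscles for 10 named genes of the lists around it. It was more negative in gastrocnemius for Igfbp5 (-3.04), Ache (-1.40), Clcn1 (-1.19), Lrp4 (-1.13), Kcnn3 (-0.99) and Nid2 (-0.86), with limma adjusted p from 1.37e-05 to 0.0384. It was more positive in gastrocnemius for Gadd45a (1.83), Chrna9 (1.03), Ampd3 (1.03) and Hdac11 (0.75), with limma adjusted p from 5.69e-05 to 0.0197. Muscle and cohort cannot be told apart in any of these.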

How the results depend on the processing

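Across normalization, variance trend, filter, testing all rows with a symbol, separate fits of the muscles and replicate block, the falls of Chrne and Hdac9 in C26 gastrocnemius kept their direction and call (limma adjusted p up to 0.00818 and 0.0208), as they did without any single array. Outside the leave-outs, 2 values of members changed sign, neither called: the effect difference of Chrna1 (0.017 with median centring, -0.043 as reported) and the muscle difference of Dok7 (-0.051 with quantile normalization, 0.090 as reported). Dok7 in gastrocnemius was called with quantile normalization (-0.58, adjusted p 0.0201), for genes above the median level only (0.0488) and with the replicate block (0.0268, or 0.0498 with gastrocnemius fitted alone).

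Separate fits of the 2 muscles called 911 genes in gastrocnemius (2315 as reported) and 2203 in heart (627 as reported). The reported fit shares 1 spread per gene over both muscles. Where gastrocnemius arrays vary more than heart arrays, it can understate the SE in gastrocnemius and overstate it in heart. Calls of the list genes in separate fits are not given here. With each muscle alone and the replicate block, 2391 were called in heart, including 2 members (1 as reported; Hdac4 at adjusted p 0.0338 was the addition). Quantile normalization called 1219 genes for the difference of effects (777 as reported). When single arrays were left out, members called numbered 2 to 4 in gastrocnemius, 0 to 1 in heart and 1 to 2 for the difference. All genes called then numbered 330 to 1145 in heart and 466 to 1616 for the difference. The range for all genes in gastrocnemius is not given here.

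Without single arrays the sign of uncalled values turned for 10 results. In gastrocnemius these were Chrna1 (-0.25 to 0.23), Chrng (-0.15 to 0.054), Musk (-0.015 to 0.38) and Hdac4 (-0.074 to 0.048), and in heart Chrna1 (-0.18 to 0.15), Chrnd (-0.093 to 0.034) and Dok7 (-0.12 to 0.029). For the difference of effects they were Chrna1 (-0.24 to 0.25) and Musk (-0.27 to 0.12), and between NTB muscles Dok7 (-0.097 to 0.20). The replicate block changed no call of a member other than Dok7. The choice of another row per gene was not run because each member has 1 row.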
